A study of Homo sapiens with 4 samples.

Results

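The 37 genes described here are the repressor REST and genes of neurons and neuroendocrine cells that it is known to hold silent in other tissues. They were measured in HepG2 cells, an established line from a human liver tumour, with Affymetrix HG-U133 Plus 2 arrays. All 4 are bulk samples, in which fewer cells of a type and less RNA per cell cannot be told apart. Members were taken by symbol: a probe set (a group of short probes that reads a transcript) counted when the platform annotation gave it 1 gene and that gene, under its current or a former symbol, was on the list. All 37 were found, with 77 probe sets, among 19775 genes in all. Control cells were HepG2 transfected with an siRNA against GL3 (2 arrays, titled Cont1 and Cont2). Knockdown cells were HepG2 transfected with siRNA-1 against LSD1 (1 array) or siRNA-2 against LSD1 (1 array), so the group of 2 knockdown arrays holds 2 different reagents. All cultures were kept in DMEM with 25 mM glucose and 10% serum, transfected with RNAiMAX at about 50% confluence and harvested after 4 days. Nothing in the labels ties each array to its own culture; the spread behind the p-values is that between arrays and may be technical. The comparison asks what LSD1, a demethylase that works inside the CoREST complex, does to these genes in a hepatoma cell.

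REST is a zinc finger repressor that binds a long DNA element called RE1. It recruits SIN3A at one end and CoREST (RCOR1) at the other, and CoREST carries the histone deacetylases HDAC1 and HDAC2 together with LSD1 (gene KDM1A), which removes methyl groups from histone tails. In cells outside the nervous system, liver cells among them, this keeps genes for synapses, nerve channels and secretory granules off.

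The element itself could be seen at some members. RefSeq promoter windows (GRCh38.p14, from 250 bases before a transcript's start to 50 after it) were matched by symbol for 24 of the 37 members, with 47 windows. Searched on both strands, the whole RE1 consensus, by that name, was found in windows of 2 members, SYN1 and GRIA2, and in 0.0683% of all 35116 windows. Its left arm, TCAGCACC, searched by itself, was found in windows of 5 members, GRIA2, SCG3, SYN1, SYT4 and UNC13A (1.67% of all windows). Its right arm, GGACAGC, was found in windows of 5, GRIA2, REST, SCG3, UNC13A and VGF (6.03%). The consensus allows other letters at some places, so a whole RE1 need not hold either exact arm. The sites of SYN1 and GRIA2 do hold the left. SCG3 and UNC13A had both arms on 1 strand with 8 bases between them, against 2 in GRIA2. These sites are shown because they are the sequence by which REST is known to reach its targets. Capitals mark the 17 bases matched by the consensus in the first pair and the arms in the next pair. In GRIA2 the right arm ends in the base after the capitals. RefSeq's GRIA2 gene starts at base 157220120, so this site lies inside the gene's span. Each stretch is written 5′ to 3′ on the strand given.

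SYN1, chrX:47620071-47620093, minus strand: agcTTCAGCACCGCGGACAGtgc

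GRIA2, chr4:157220389-157220411, minus strand: cctTTCAGCACCGAGGACAGcgc

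SCG3, chr15:51681510-51681536, plus strand: ctTCAGCACCcacagggcGGACAGCgc

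UNC13A, chr19:17688339-17688365, plus strand: gtTCAGCACCgggggcgcGGACAGCgc

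None of these 4 genes passed the test of knockdown against control, which only 1 of all 19775 genes did (0.00506%). Not passing therefore does not set them apart. Their values are given below. A match describes letters in a window and is not evidence of binding in these cells, and elements elsewhere in a gene were not searched.

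The deposited values are log2 RMA values from which the authors took away each probe set's median, so the level of a gene is gone and only differences between arrays remain. How bright a probe set was before centring still shows in the rounding of its values, which is coarser at 8 or above than from 4 to 8 or below 4 on the log2 scale. The class follows the dimmest of the 4 arrays, and about 1 probe set in 8 lands a class too high by chance. By this measure 14 members lay below 4, 15 from 4 to 8 and 8 at 8 or above. The share at 8 or above was 21.6% of members against 37.6% of all genes. Of the 14 hepatocyte markers listed for HepG2, 12 were measured, and all 12 lay at 8 or above. Dim members included the sodium channel genes SCN1A, SCN2A and SCN3A, the AMPA receptor gene GRIA2, the granin gene CHGA and the axonal growth gene STMN2. Members in the brightest class, by the brightest of their probe sets, were SCN9A, GRIN1, BDNF, SYN1, SNAP25, TUBB3, NEFL and L1CAM. Of these only TUBB3 had all its probe sets there. The others of SNAP25 and L1CAM, with 1 each of GRIN1 and NEFL, lay below 4. The remaining ones of these genes, with those of SCN9A, BDNF and SYN1, lay from 4 to 8. All TUBB3 probe sets and the GRIN1 probe set used are of the _x_at kind, whose probes can also match other transcripts.

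**Figure D1:**
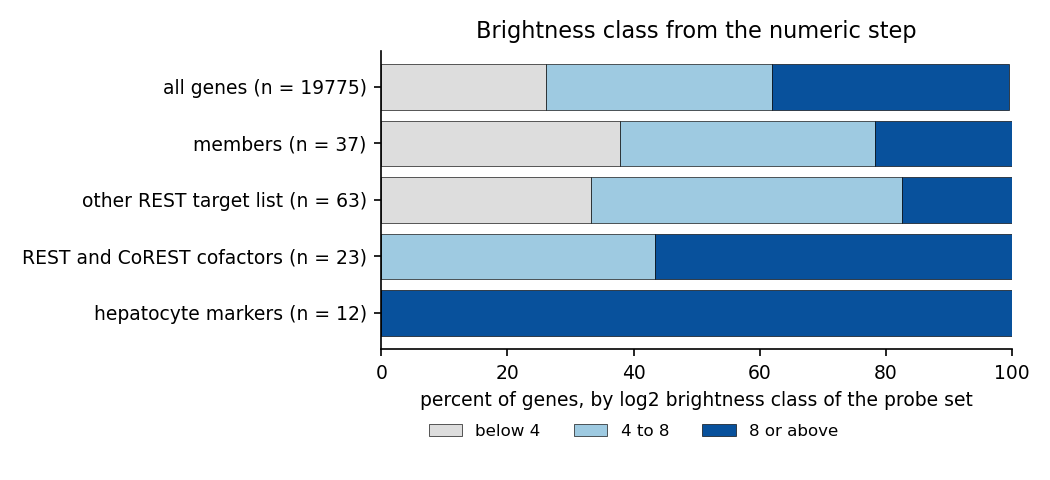
Share of genes (percent, x axis) whose probe set lay below 4, from 4 to 8 or at 8 or above on the log2 scale, by gene list; a small share of all genes gave no step and is left blank. Members had 8 of 37 genes in the brightest class, and the hepatocyte markers had 12 of 12.

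KDM1A, the targeted gene, read 1.23 and 1.17 in the controls, against -1.55 under siRNA-1 and -1.17 under siRNA-2. The groups did not overlap and lay -2.56 ± 0.16 apart (knockdown minus control, SE, n = 2 arrays per group; limma adjusted p = 0.0855), which missed the threshold of 0.05. The siRNA-2 array stood apart: the SD of its values over all probe sets was 0.384, against 0.154 to 0.197 on the other 3. Hybridization spike-ins, added in equal amounts to every array, parted knockdown from control instead. They read -0.71 and -0.64 in the controls, against 0.64 under siRNA-1 and 0.69 under siRNA-2 (median difference 1.36). Poly-A spike-ins, another set of control probe sets, shifted less (median difference 0.27, from -0.10 to 0.50). The ACTB 5′ probe set minus its 3′ probe set gave 0.34 and 0.23 in the controls. It gave -0.26 under siRNA-1 and -0.38 under siRNA-2 (difference -0.61). The same measure for GAPDH shifted less, from 0.13 and 0.04 in the controls to -0.04 and -0.14 after knockdown (difference -0.18). These shifts follow the groups of the main comparison, so the design cannot separate them from the knockdown. All 12 hepatocyte markers were above both controls on both knockdown arrays (median difference 0.47). Of all genes 23.7% were so, and of the genes at 8 or above 2010 of 7437. The part of these in the results below was not tested.

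Across the 37 members most differences were small. The median difference (knockdown minus control) was 0.00, as it was over all genes (0.00), and 30 members differed by less than 0.5. Both knockdown arrays lay above both controls for 8 members, where 23.7% of all genes did so (21.6% of members), and below both for 12, where 25.3% of all genes did so (32.4% of members). Together the groups were apart for 20 members (54.1%), against 49.0% of all genes, so these shares are near the background. No member passed the limma test over all genes (0 of 37; background 0.00506%, 1 of 19775 genes), with adjusted p from 0.171 to 0.999. At an unadjusted p under 0.05 there were 7 members, and 14.6% of all genes. A few members stood far out on either side: SCN1A had the largest absolute difference of all genes but 1, ranked 2 of 19775, VGF ranked 23 and SCN9A 84. Differences of at least 0.5 were seen in 7 members (18.9%), against 11.9% of all genes; in these 7 the groups were also apart.

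**Figure D2:**
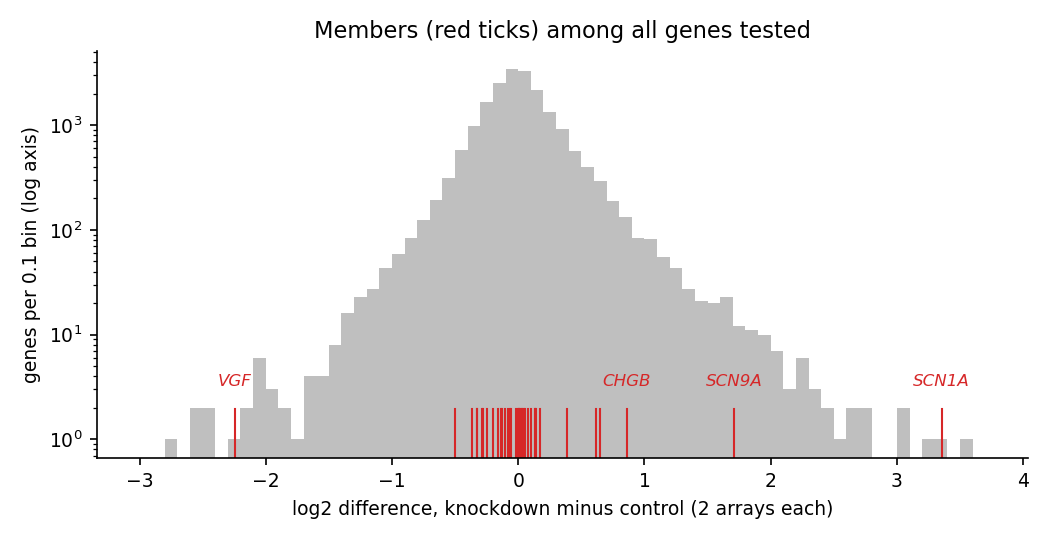
Histogram of log2 differences (knockdown minus control, 2 arrays each, x axis) over 19775 genes, with the number of genes per bin on a log axis; red ticks mark the 37 members. Most members sit in the centre of the distribution, with SCN1A at 3.35, SCN9A at 1.71 and CHGB at 0.86 to the right and VGF at -2.25 to the left.

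**Figure D3:**
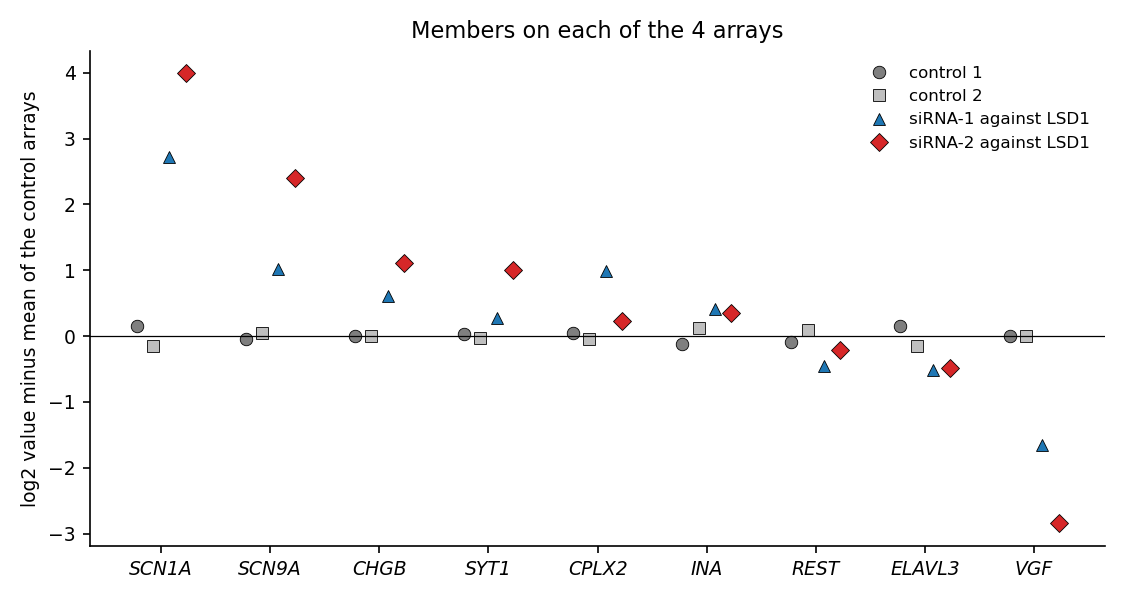
Log2 value on each array minus the mean of the control arrays (y axis) for 9 members; each point is 1 array. Both knockdown arrays lie on the same side of both controls for all 9, far from them for SCN1A and VGF and close to them for REST and INA.

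REST, the repressor, read 0.06 and 0.24 in the controls, against -0.30 under siRNA-1 and -0.06 under siRNA-2. Both knockdown arrays were lower than both controls, by a margin that is small beside the gap within each group. The gap, knockdown minus control, was -0.33 ± 0.14 (SE, n = 2 arrays per group; limma adjusted p = 0.39). Its further probe sets did not go 1 way: one read 0.16 and 0.04 in the controls against -0.04 and -0.50 after knockdown, the other 0.04 and -0.17 against 0.04 and -0.04.

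Among the channels and receptors, 2 neighbouring sodium channel genes had large positive differences. The other 7 members did not exceed 0.29 in either direction on the probe sets used, though some of their further probe sets did. SCN1A encodes the sodium channel of fast-firing inhibitory neurons. It read -1.28 and -1.58 in the controls, against 1.28 under siRNA-1 and 2.56 under siRNA-2. The knockdown arrays were far above the controls, a difference of 3.35 ± 0.46 (10.2-fold, SE, n = 2 arrays per group), and limma gave an adjusted p of 0.171. Its probe set counts as below 4 because the dimmest array sets the class. A further SCN1A probe set, also below 4, read -0.35 and -0.15 in the controls against 0.41 and 0.15 after knockdown, the same direction at a much smaller size.

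SCN9A encodes the sodium channel of pain-sensing neurons. It read -0.57 and -0.49 in the controls, against 0.49 under siRNA-1 and 1.86 under siRNA-2. Again the groups were apart, with a difference of 1.71 ± 0.48 (3.27-fold, SE, n = 2 arrays per group; limma adjusted p = 0.274). Its other probe set read -0.38 and -0.43 against 0.38 and 2.02, so the probe sets of this gene gave like values.

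SCN2A and SCN3A, channels of excitatory and of developing neurons in the same gene cluster, did not share this. SCN2A read -0.03 and -0.02 in the controls, against 0.02 under siRNA-1 and 0.20 under siRNA-2. SCN3A read 0.01 and -0.01 in the controls, against -0.18 under siRNA-1 and 0.39 under siRNA-2, so the siRNAs went opposite ways. SCN8A, a sodium channel of axon initial segments, had a difference of -0.29 ± 0.13, and its 6 probe sets, all below 4, went both ways, from -0.29 to 0.31. SCN3B, a sodium channel beta subunit, read 0.00 on 3 arrays and 0.05 with siRNA-1. Its other probe set, below 4, read 0.02 and -0.55 against 0.15 and -0.02, with groups that overlapped. The AMPA receptor gene GRIA2, which carries the RE1 shown above, read -0.01 and 0.01 against -0.02 and 0.04. The NMDA receptor gene GRIN1 (-0.16) and the potassium channel gene KCNH2 (-0.14) were slightly below both controls on both knockdown arrays. A further KCNH2 probe set, below 4, differed more (-0.55), at 0.19 and 0.39 in the controls against -0.34 and -0.19 after knockdown. The median of the 9 was 0.03.

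The regions upstream of the listed starts of SCN1A and SCN9A, the members with the largest positive differences, are given for reference. Neither the whole RE1 nor either arm was found in these windows, which says only that these letters are not there. The stretch for SCN9A ends where RefSeq's gene begins.

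SCN1A, chr2:166149162-166149411, minus strand: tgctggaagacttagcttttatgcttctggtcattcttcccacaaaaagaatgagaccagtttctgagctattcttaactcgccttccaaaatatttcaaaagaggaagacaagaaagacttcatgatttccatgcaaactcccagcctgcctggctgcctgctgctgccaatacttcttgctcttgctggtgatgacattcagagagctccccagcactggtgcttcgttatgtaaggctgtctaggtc

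SCN9A, chr2:166375988-166376194, minus strand: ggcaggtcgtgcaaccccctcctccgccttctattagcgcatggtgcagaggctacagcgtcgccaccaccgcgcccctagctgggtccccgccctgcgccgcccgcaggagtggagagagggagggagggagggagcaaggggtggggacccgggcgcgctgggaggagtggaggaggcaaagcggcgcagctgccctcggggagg

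Granins are acidic proteins that pack hormones and neuropeptides into secretory granules. None of the 7 secretory members passed the test of 2 against 2 arrays, and CHGB and VGF had the largest differences, of opposite sign. CHGB, chromogranin B, read -0.30 and -0.31 in the controls, against 0.30 under siRNA-1 and 0.80 under siRNA-2. Both knockdown arrays were clear of the controls, and the gap was 0.86 ± 0.20 (1.81-fold, SE, n = 2 arrays per group; limma adjusted p = 0.243). CHGA, chromogranin A, lay below 4 and was flat, at 0.00 on all 4 arrays.

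VGF, the precursor of several neuropeptides, went the other way. It read 0.82 and 0.83 in the controls, against -0.82 under siRNA-1 and -2.02 under siRNA-2. The controls were nearly equal and both knockdown arrays far lower, a difference of -2.25 ± 0.42 (4.74-fold lower, SE, n = 2 arrays per group; limma adjusted p = 0.206). It was 1 of the 6 most negative differences of all 19775 genes. VGF has 1 probe set, of the _x_at kind, whose probes can also match other transcripts.

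The remaining secretory genes had smaller differences. SCG2, secretogranin II, read 0.06 and 0.22 against -0.06 and -0.15, and the neurotrophin gene BDNF 0.22 and 0.03 against -0.13 and -0.03, both slightly below the controls. SCG3, a granule-sorting protein with the spaced RE1 arms shown above, read 0.28 and -0.08 against -0.02 and 0.02, so its groups overlapped. SCG5, the chaperone of a prohormone convertase, read 0.08 and -0.08 against -0.11 and 0.46, higher only with siRNA-2. The median of the 7 was -0.10.

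The VGF promoter is shown because VGF had the largest negative difference. Its known cyclic AMP response element (CRE, TGACGTCA, in capitals) also lies in it, 79 bases before the listed start. RefSeq's VGF gene spans bases 101162509 to 101169952, so this start and the stretch shown lie inside the gene's span. The CRE palindrome was found in windows of 3 members, VGF, CHGA and SYN1, and in 1.85% of all windows. Their differences were -2.25, 0.00 and 0.13 on the probe sets used. That of CHGA lay below 4, and the other SYN1 probe set gave -0.45. The part of the element in these differences was not tested. The right arm of RE1, found in 6.03% of all windows, also lies in the VGF stretch. It takes up the 7 bases before the start, on the opposite strand, and is not in capitals.

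VGF, chr7:101165570-101165819, minus strand: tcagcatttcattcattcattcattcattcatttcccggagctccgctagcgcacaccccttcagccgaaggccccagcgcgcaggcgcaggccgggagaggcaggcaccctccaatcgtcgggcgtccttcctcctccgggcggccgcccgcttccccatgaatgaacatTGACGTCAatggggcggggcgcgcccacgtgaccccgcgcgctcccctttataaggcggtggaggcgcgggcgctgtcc

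Of the 10 synaptic genes, SYT1 and CPLX2 had differences over 0.5 and the other 8 did not. SYT1, the calcium sensor of vesicle release, read -0.13 and -0.18 in the controls, against 0.13 under siRNA-1 and 0.85 under siRNA-2, a difference of 0.64 ± 0.27 (SE, n = 2 arrays per group; limma adjusted p = 0.373). Its other probe set read -0.25 and -0.08 against 0.08 and 0.90. CPLX2, a complexin that clamps the release machinery, read -0.09 and -0.19 in the controls, against 0.85 under siRNA-1 and 0.09 under siRNA-2, a difference of 0.61 ± 0.28 (limma adjusted p = 0.405). Here siRNA-1 gave the larger value, and the other CPLX2 probe set did so too, at 1.18 with siRNA-1 and 0.05 with siRNA-2.

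Its paralog CPLX1, singled out after its values were seen, was opposite with the siRNAs: it read 0.00 and 0.00 in the controls, against 0.51 under siRNA-1 and -0.66 under siRNA-2. STX1A, the syntaxin of the fusion complex, was below both controls on both knockdown arrays (-0.32 ± 0.13), as was SYT4 (-0.28 ± 0.12), a synaptotagmin that does not bind calcium in the usual way. SYP, the vesicle protein synaptophysin, was slightly above (0.14 ± 0.11).

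SYN1, which coats vesicles and has the RE1 shown above, read 0.01 and -0.04 in the controls, against 0.25 under siRNA-1 and -0.01 under siRNA-2 on the probe set used. Its other probe set read 0.05 and 0.43 against -0.05 and -0.37, so the probe sets of SYN1 point opposite ways. SNAP25, a partner of STX1A, read -0.05 and 0.05 against 0.19 and -0.13, and its 3 probe sets differed in sign (from -0.07 to 0.14). The vesicle priming gene UNC13A, with the spaced arms, read 0.19 and -0.20 against -0.01 and 0.01, and RUNDC3A differed by 0.05. The median of the 10 was 0.04.

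The cytoskeletal members, which build and remodel axons, all had differences under 0.5 in size (7 of 7). INA, the intermediate filament alpha-internexin, had the largest: it read -0.35 and -0.12 in the controls, against 0.19 under siRNA-1 and 0.12 under siRNA-2, a difference of 0.39 ± 0.13 (SE, n = 2 arrays per group; limma adjusted p = 0.314). The groups did not overlap, and both siRNAs gave like values. DCX, the microtubule protein doublecortin, was lower on both knockdown arrays (-0.37 ± 0.14), although its other dim probe set read 0.42 under siRNA-1 and -0.13 under siRNA-2. TUBB3, the tubulin used to mark neurons, differed by -0.13. Its probe sets lay in the brightest class in HepG2, but all are of the _x_at kind. The neurofilament genes NEFL (0.00), NEFM (0.05) and NEFH (-0.07), and the microtubule destabiliser STMN2 (0.08), had groups that overlapped.

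Among the adhesion and RNA-binding genes, ELAVL3, a neuronal RNA-binding protein, read 0.47 and 0.17 in the controls, against -0.20 under siRNA-1 and -0.17 under siRNA-2. Both knockdown arrays were lower, a difference of -0.50 ± 0.14 (SE, n = 2 arrays per group; limma adjusted p = 0.274). Its 2 further probe sets, both below 4, read 0.14 and 0.10 under siRNA-1 but -0.38 and -0.43 under siRNA-2. ELAVL4 of the same family read 0.10 and -0.08 against 0.08 and -0.17, and its 4 probe sets differed in sign. The adhesion gene L1CAM read -0.01 and 0.01 in the controls, against 0.23 under siRNA-1 and -0.27 under siRNA-2.

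**Figure D4:**
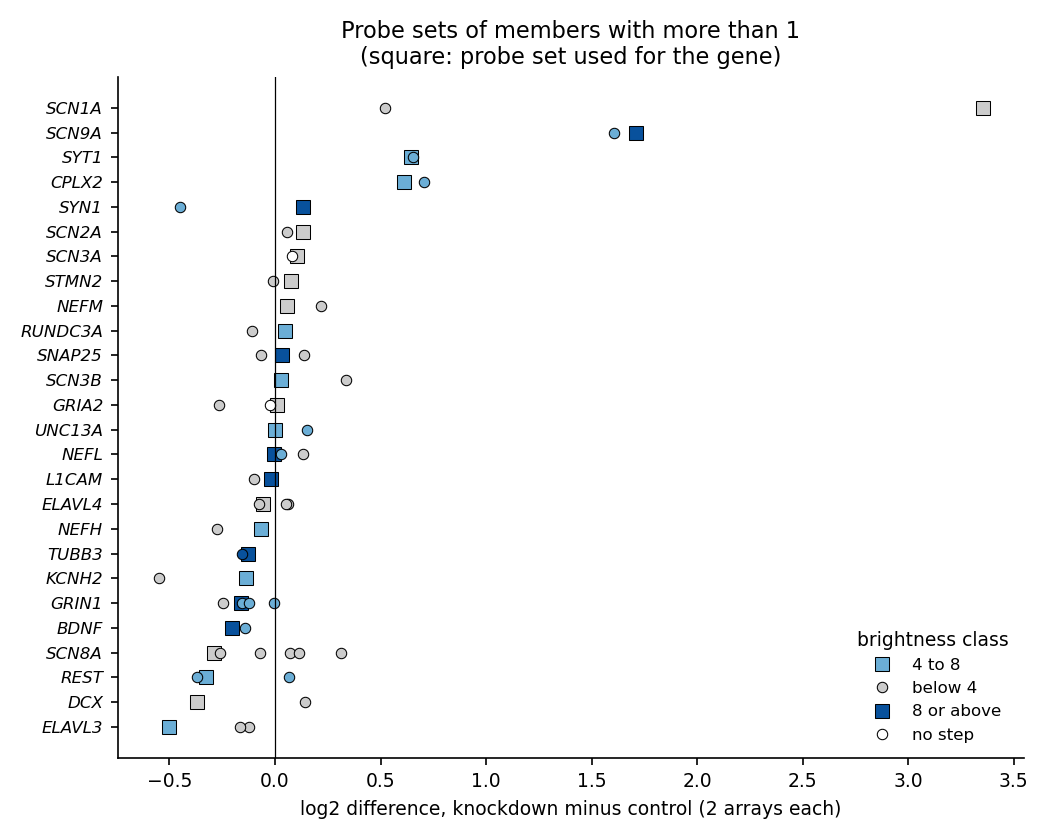
Log2 difference (knockdown minus control, x axis) of every probe set of the 26 members with more than 1; squares mark the probe set used for the gene, and the fill gives its brightness class. Probe sets of SCN9A, SYT1 and CPLX2 lie close together, those of SCN1A lie far apart on 1 side of 0, and those of SYN1, SCN8A and REST lie on both sides.

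Of the 40 further probe sets, 25 had the sign of the one used, and the 6 further probe sets of the 7 members with groups apart and differences of at least 0.5 all did.

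Each siRNA was then set against the controls, in a limma model with 3 groups where the 2 controls alone give the spread and the lone array of each siRNA is taken to vary as they do. With siRNA-1 no member passed, and no gene did (background 0.00%, 0 of 19775 genes; the smallest adjusted p of a member was 0.0911). With siRNA-2 a total of 9 members passed (24.3%), where 23.6% of all genes did, so the members' share is close to the background, and these calls rest on the siRNA-2 array, whose values spread more widely than those of the controls that set the error. The 5 that rose with siRNA-2, where 13.4% of all genes rose, were SCN1A (3.99 ± 0.16, SE; limma adjusted p = 0.0172), SCN9A (2.39 ± 0.08), CHGB (1.11 ± 0.06), SYT1 (1.01 ± 0.07) and SCN3A (0.39 ± 0.07; limma adjusted p = 0.0461). The 4 that fell, where 10.1% of all genes fell, were VGF (-2.84 ± 0.06), CPLX1 (-0.66 ± 0.06), DCX (-0.50 ± 0.07) and STX1A (-0.45 ± 0.07). The same contrasts with siRNA-1 gave 2.71 for SCN1A, 1.02 for SCN9A, 0.61 for CHGB, 0.28 for SYT1 and -1.65 for VGF. DCX (-0.23) and STX1A (-0.20) were also lower with siRNA-1. SCN3A (-0.18) and CPLX1 (0.51) went the opposite way from siRNA-2. The contrasts share their control arrays. In the test of siRNA-2 against siRNA-1, which sets 1 array against 1 with the spread of the controls, 3 members passed (8.11%), where 6.13% of all genes did: SCN9A (1.37), VGF (-1.19) and CPLX1 (-1.17, all limma adjusted p = 0.045). In 13 of 37 members the siRNAs gave opposite signs, against 35.4% of all genes.

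**Figure D5:**
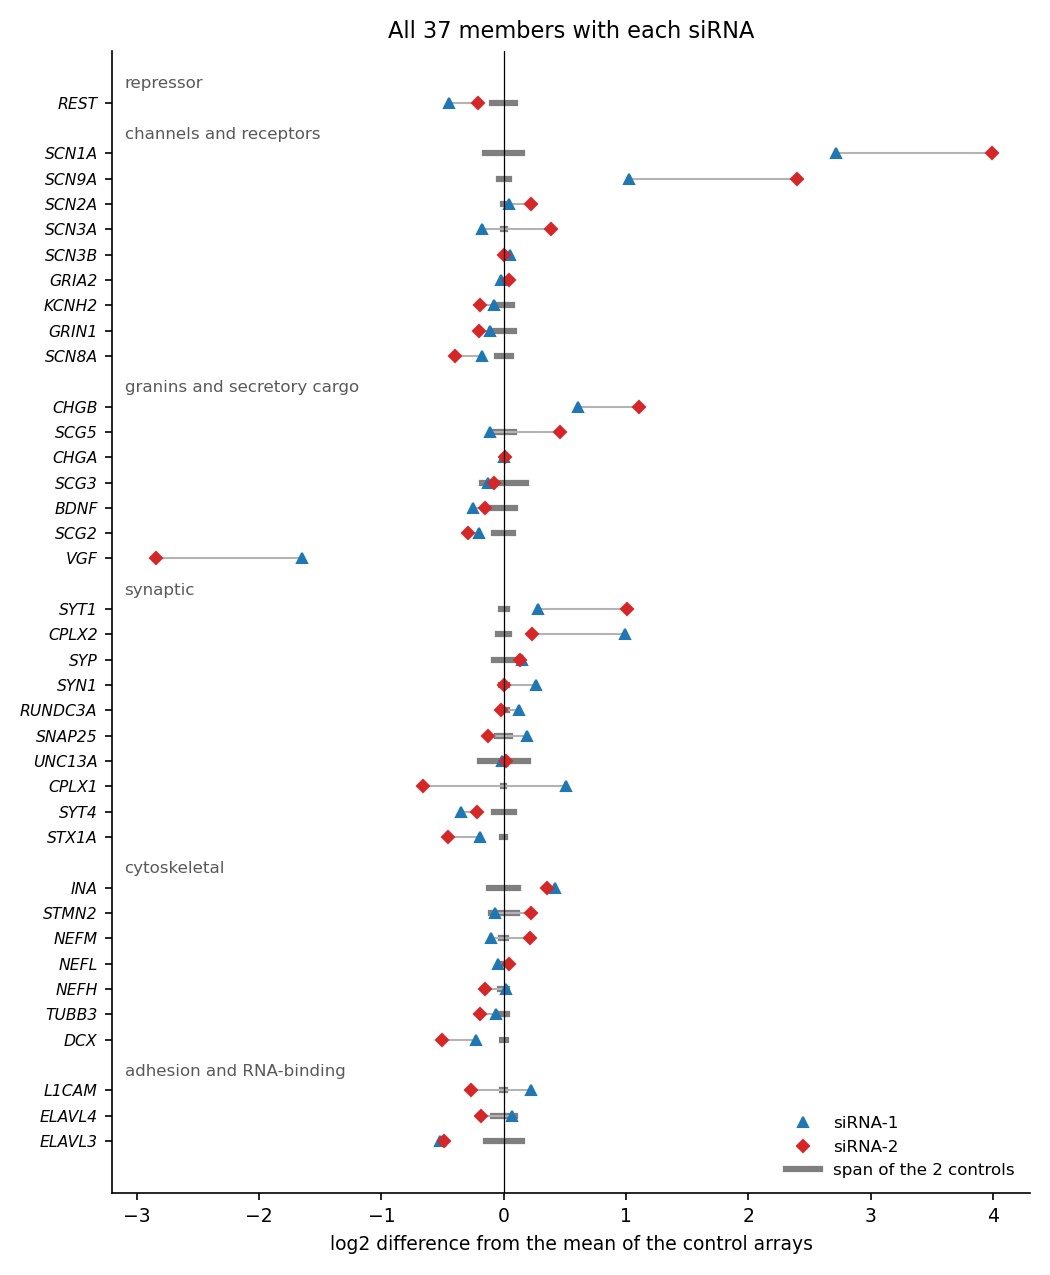
Log2 difference of each siRNA array from the mean of the control arrays (x axis) for all 37 members, by class; triangles are siRNA-1, diamonds siRNA-2, and the thick grey bar spans the control arrays (too short to see for CHGB and VGF, whose controls nearly coincide). Only SCN1A, SCN9A and VGF lie beyond 1 log2 unit with both siRNAs.

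Further genes of the pathway came from 3 lists of other genes. Of 25 REST and CoREST cofactors, 23 were measured, and none lay below 4. None passed the test over all genes. Of these cofactors 5 lay above and 8 below both controls (56.5% together, against 49.0% of all genes), with a median of -0.02 (0.00 over all genes). Those with the smallest p were KDM1A, GSE1 (-0.71 ± 0.13), a protein found with CoREST, the chromatin remodeller SMARCA4 (-0.57 ± 0.13) and ZNF217, a zinc finger protein found with CoREST, at -0.29 and -0.32 in the controls against 0.29 and 1.10 after knockdown. Of 68 other neuronal genes described as REST targets, 63 were measured, 14 above and 13 below both controls (42.9% together). Their median was -0.03, with 0 past the test. BEX1, a small neuronal signalling protein, stood out, with -0.85 and -0.89 in the controls against 1.37 and 0.85 after knockdown (1.98 ± 0.20; limma adjusted p = 0.126). It was followed by NALF2 (-0.84 ± 0.29), SCAMP5 (0.42 ± 0.12) and HCN3 (0.32 ± 0.10). Of 20 neuronal genes not chosen as REST targets, 17 were measured, 2 above and 4 below (35.3% together). Their median was -0.07, with 0 past the test. They were led by ENO2 (-1.08 ± 0.10), MAPT (0.58 ± 0.14), SOX2 (-0.32 ± 0.10) and DLG4 (-0.57 ± 0.20).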

How the data were processed

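RNA of 4 HepG2 samples was read on Affymetrix arrays, 2 control and 2 knockdown, grouped by title. The authors deposited log2 values made with RMA, per the submitters' processing notes; its version was not given in the sources used here, and base 2 follows from RMA. The values show that the authors also centred each of the 54675 probe sets on its median over the 4 arrays (largest deviation 5.0e-07), which removes levels. No counts or depth exist, and the number of arrays limits precision. Probe sets were named by the platform annotation, with symbols updated through gene identifiers (19734 of 19775 genes matched RefSeq); 1801 probe sets with several genes were not used. Each gene took its brightest probe set by numeric step, then one with no letter suffix, then the lowest identifier.

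Tests used limma 3.58.1 under R 4.3.3 (lmFit and eBayes, two-sided, Benjamini-Hochberg over all genes, threshold 0.05; prior of 2.33 degrees of freedom), with no replicate block. The test of 2 against 2 arrays was checked on simulated data. There, all arrays of a gene had the same spread and both knockdown arrays the same shift. The simulation therefore checks the fit, and not how the test behaves with a siRNA-2 array that spreads more widely. With 2 arrays a group the smallest exact permutation p is 0.33, so none is given. Values on all arrays are given for REST, members with groups apart by at least 0.5, the largest of each class and members whose probe sets go opposite ways; other lists give the 4 smallest p. Other members are named with values for completeness. Members and lists were chosen with earlier results of these data known.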

Additional observations from a re-analysis of the deposited data

Results flagged for a closer look

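In 3 members the siRNA-2 array differed from the siRNA-1 array by a limma test. Each siRNA has 1 array and the 2 controls alone give the spread, so the test compares those arrays and does not show that the siRNAs differ in effect. For SCN9A the siRNA-2 array lay 1.37 above the siRNA-1 array. VGF was lower with siRNA-2 by a further -1.19. CPLX1, higher with siRNA-1 and lower with siRNA-2, differed by -1.17. The test passed for 6.13% of all genes, and the spread of all values was widest on the siRNA-2 array (SD 0.384, against 0.197 with siRNA-1); the part of this in the 3 differences was not tested.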

How the results depend on the processing

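Every member difference keeps to 2 arrays a group, and values near 0 carry no direction. Over 13 alternative settings the signs of SCN1A, SCN9A, CHGB, VGF, SYT1, CPLX2, INA, ELAVL3, SCN8A, REST and KDM1A held wherever they could be computed. Most settings could not have turned them. The groups were apart in all these genes, so leaving out 1 array keeps the sign. Changing the moderation or adding the replicate block leaves the difference as it was. Only settings that changed the values or the probe sets of a gene could turn a sign. The difference ran from 1.94 to 3.99 for SCN1A (adjusted p from 0.0107 to 0.999), from 1.02 to 2.39 for SCN9A, from -2.84 to -1.65 for VGF and from -0.45 to -0.21 for REST. SYN1 turned to -0.16 when its probe sets were averaged and to -0.45 on the unsuffixed one. SNAP25 and ELAVL4 turned with 1 array left out (from -0.13 to 0.19 and from -0.18 to 0.067).

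Genes passing over all genes numbered 1; the count was 0 with averaged probe sets, without genes below 4, with robust moderation, with the replicate block and with all-zero probe sets ranked like the others, 403 with quantile normalization, which forces the same spread on all arrays, and 0 to 4658 with 1 array left out. Without siRNA-1, only siRNA-2 is compared, which gives the 4658. Members passing were 0, but 4 with quantile normalization (SCN1A, SCN9A, CHGB and VGF) and 0 to 9 with 1 array left out, the 9 without siRNA-1. KDM1A read -3.05 with quantile normalization (adjusted p = 0.034) and -2.75 to -2.37 with 1 array left out (adjusted p = 0.0172 without siRNA-1). Members above both controls ran from 8 to 15 with 1 array left out. They numbered 14 without control 1, 8 without control 2, 15 without siRNA-1 and 14 without siRNA-2. Of all genes 31.8%, 32.4%, 40.1% and 40.4% were above, fewer arrays being asked to agree. Members below ran from 13 to 17. They numbered 13 without control 1, 15 without control 2, 17 without siRNA-1 and 17 without siRNA-2. Of all genes 33.8%, 34.4%, 44.6% and 39.9% were below. Without suffixed probe sets 28 members remained and 7 were below, where 24.4% of genes were. The members' median was -0.019 when probe sets of a gene were averaged, -0.0023 without genes below 4, 0.013 with centred arrays, 0.017 with quantile normalization and -0.026 to 0.021 with 1 array left out. For channels and receptors it was 0.093 with averaged probe sets and -0.055 without genes below 4 (-0.019 to 0.042 with 1 array left out), for secretory genes -0.20 without genes below 4 and -0.14 with quantile normalization (-0.17 to 0.0071), and for synaptic genes -0.0095 to 0.17 with 1 array left out.

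Same-numbered arrays deviated together with a correlation of only 0.0349. The knockdown arrays carry different siRNAs, so their deviation includes that difference, and this value cannot show whether the numbers pair the arrays. With the replicate block 0 genes and 0 members passed, and KDM1A had a limma adjusted p of 0.434.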

Other observations

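SCN1A and SCN9A lie side by side in a cluster of sodium channel genes on chromosome 2, and the values of the genes around them were read in RefSeq's order, a choice made after the members' values were seen. Along the chromosome the genes measured were COBLL1 (0.05), SLC38A11 (0.33), SCN3A (0.10), SCN2A (0.13), CSRNP3 (-0.04), GALNT3 (0.30), SCN1A (3.35), SCN9A (1.71), SCN7A (-0.27) and XIRP2 (-0.24), each as the log2 difference of knockdown minus control. The large differences were thus those of 2 adjacent genes. GALNT3, an enzyme that starts mucin-type glycosylation and the measured gene next to SCN1A on the side away from SCN9A, read -0.15 and -0.03 on the controls, 0.03 with siRNA-1 and 0.40 with siRNA-2. SCN7A, on the other side of SCN9A, read 0.14 and 0.00 against 0.00 and -0.40, and its groups overlapped. No gene of this stretch passed the limma test of 2 against 2 arrays (adjusted p from 0.171 to 0.91).

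Markers of other cells went both ways. Of 9 fibroblast or stellate cell markers 2 lay above and 1 below both controls, and of 4 measured leukocyte markers 1 above. Of 4 endothelial markers 1 lay below (PECAM1, -0.54), and of 7 neuroendocrine or neuronal markers 1 above and 3 below. In that order 33.3%, 25.0%, 25.0% and 57.1% of each list were apart, against 49.0% of all genes. The collagen gene COL1A1 (1.88 ± 0.54) and the smooth muscle actin gene ACTA2 (1.20 ± 0.38) were above both controls, COL1A2 (0.11) and COL3A1 (0.01) were not, and the monocyte marker CD14, which hepatocytes also express, read 1.31 ± 0.30. The pan-leukocyte gene PTPRC lay below 4 with a difference of 0.04.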
